A study of Mus musculus with 16 samples.

Results

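The phagocyte NADPH oxidase is the enzyme with which neutrophils turn oxygen into superoxide. The genes described here are 5 that encode its subunits: Cybb, Cyba, Ncf1, Ncf4 and Rac2. The rule that chose them gives gene names and no measured value, but it was written with earlier results of these data known. Each was found once among the 10296 genes of the deposited table. Genes had to reach a deposited value of 10 in 2 or more libraries to be tested, and all 5 did so in every group.

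In a resting neutrophil the enzyme lies apart in pieces. Cybb (gp91phox) and Cyba (p22phox) form the membrane-bound flavocytochrome, which carries electrons from NADPH across the membrane to oxygen, and much of it is stored in the membranes of secondary and tertiary granules. Ncf1 (p47phox) and Ncf4 (p40phox) wait in the cytosol as parts of a complex, and on activation they move to the membrane together with the small GTPase Rac2. Loss of a core subunit causes chronic granulomatous disease, in which phagocytes ingest microbes but kill them poorly.

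Neutrophils were sorted as Ly6G+ cells from C57BL/6 mice, either germ-free (GF, raised without microbes) or specific pathogen free (SPF, with a microbiota), and their amplified RNA was sequenced. There were 16 libraries: GF blood replicates 2 and 3, SPF blood replicates 3 and 4, GF spleen replicates 1, 3 and 4, SPF spleen replicates 1, 2 and 4, GF lung replicates 2, 3 and 4, and SPF lung replicates 1, 2 and 3. No treatment, transgene or age is given in the labels. Each library is labelled as obtained from a mouse, but not whether libraries of different tissues share an animal, so p-values here rest on the scatter among libraries, part of which may be technical.

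A level is given in normalised counts, that is, the deposited value after removal of an offset worth 0.5 reads that every value carries. Depth was lowest in spleen, with a median of 199487 reads per library against 856319 in lung and 2712907 in blood, and 5 libraries held under 250000 reads (GF blood replicate 3, GF spleen replicates 1 and 4, SPF spleen replicates 1 and 4). The neutrophil marker list was present in every group: its summed level ran from 54194 to 94515 in blood, from 37925 to 75447 in spleen and from 34579 to 55883 in lung. Transcripts of lung epithelium, endothelium and stroma were found in the lung libraries, with a summed level of 3003 to 11745 over 10 of 14 markers in the table, against at most 51.9 in any blood or spleen library. Erythroid markers summed to 43852 to 99051 in blood, 36.0 to 21987 in GF spleen, 56.4 to 106.7 in SPF spleen and 38.9 to 2062 in lung. Platelet markers summed to 331 to 635 in blood and to at most 21.9 elsewhere, and B cell markers, 8 of 9 in the table, summed to 456 to 757 in every group. The part of these other cells in the differences below was not tested.

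The gene for the catalytic subunit, Cybb (ENSMUSG00000015340, GRCm38 chromosome X, 9435252 to 9487771, minus strand), was several-fold higher in spleen than in blood or lung, in GF and in SPF mice alike. Its partner in the flavocytochrome, Cyba (ENSMUSG00000006519, chromosome 8, 122424776 to 122432930, minus strand), was not higher in spleen: it was highest in SPF blood. Because the transcripts of this pair took different courses across the tissues, the 250 bases upstream of their start sites are shown, from RefSeq on build GRCm38.p6, 5′ to 3′ on the gene's strand. The Cybb window is chrX:9469325-9469574 and the Cyba window is chr8:122432941-122433190, both read on the minus strand. The Cybb window lies inside the gene bounds given above, which come from GENCODE, so its RefSeq start site is not the outermost GENCODE start. The bases right after the Cyba window were not found near the start of a GENCODE transcript of Cyba, whereas those after the Cybb window were found for Cybb. Capitals mark a CCAAT box.

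Cybb: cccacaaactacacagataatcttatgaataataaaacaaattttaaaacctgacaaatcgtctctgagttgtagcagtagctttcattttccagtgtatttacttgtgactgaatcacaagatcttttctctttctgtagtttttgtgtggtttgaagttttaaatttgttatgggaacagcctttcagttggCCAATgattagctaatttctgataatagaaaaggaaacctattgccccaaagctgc
Cyba: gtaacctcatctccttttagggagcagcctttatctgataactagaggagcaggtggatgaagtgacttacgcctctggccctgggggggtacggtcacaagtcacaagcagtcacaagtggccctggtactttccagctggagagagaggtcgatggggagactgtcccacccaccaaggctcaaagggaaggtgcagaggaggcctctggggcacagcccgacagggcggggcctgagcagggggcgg

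Both strands were searched for motifs known from promoters of myeloid genes: the box CCAAT, and GAGGAA, a core bound by the factor PU.1. The Cybb window held CCAAT at 56 to 52 bases before the start site and no GAGGAA, and the Cyba window held neither. Of 32851 RefSeq mouse promoter windows of the same length, 33.8% held CCAAT and 23.3% held GAGGAA on either strand. The Ncf1 window held neither motif. These matches describe letters in a window and not a bound site. Only these exact letters were searched, so the absence of GAGGAA does not show that a window lacks a site for PU.1. Ncf4 and Rac2 were not matched to a promoter entry.

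Cybb measured 107 and 133 normalised counts in the GF blood libraries and 153 and 117 in the SPF blood libraries, in the replicate order given above. In spleen it measured 847, 471 and 443 in GF and 587, 447 and 334 in SPF. In lung it measured 123, 154 and 112 in GF and 227, 120.0 and 126 in SPF. Every spleen library therefore lay above every blood and lung library, and the lowest spleen value (334, SPF replicate 4) was above the highest value elsewhere (227, SPF lung replicate 1). Blood and lung libraries overlapped. As group means ± SD, Cybb stood at 120.2 ± 18.6 in GF blood (n = 2), 129.6 ± 21.9 in GF lung (n = 3), 135.2 ± 25.4 in SPF blood (n = 2), 157.6 ± 59.9 in SPF lung (n = 3), 455.9 ± 126.8 in SPF spleen (n = 3) and 587.2 ± 225.4 in GF spleen (n = 3). In that order, the step from SPF lung to SPF spleen was the only one between neighbours whose libraries did not overlap. The counts behind these values were small in the shallow libraries: 18 reads in GF blood replicate 3, and 71 in the lowest SPF spleen library.

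Differences were tested in limma on log2(value + 1), in a single model of all 16 libraries and 8299 genes, with Benjamini-Hochberg adjustment in each comparison and a threshold of 0.05. Fold changes are on that scale. The tissue comparisons share groups with each other, so their results are not independent. Between spleen and blood, Cybb was 4.62-fold higher in spleen in GF mice (log2 difference 2.21, SE 0.31, 95% interval 1.58 to 2.84, adjusted p = 6.07e-05) and 3.31-fold higher in SPF mice (1.73, SE 0.31, interval 1.09 to 2.36, adjusted p = 0.000951). Against spleen, it was 4.34-fold lower in lung in GF mice (−2.12, SE 0.28, interval −2.68 to −1.55, adjusted p = 1.25e-06) and 2.93-fold lower in SPF mice (−1.55, SE 0.28, interval −2.12 to −0.99, adjusted p = 0.000152). Lung and blood were not told apart for Cybb: the log2 difference was 0.09 in GF mice (interval −0.54 to 0.72) and 0.17 in SPF mice (interval −0.46 to 0.81). In bulk libraries a difference in the share of cells that express a gene and a difference in RNA per cell cannot be told apart.

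The spleen calls of Cybb were made under each of the 28 alternative settings run, which include leaving out each library and leaving out all 5 libraries under 250000 reads. Over these settings the spleen minus blood difference of Cybb ranged from 1.91 to 2.38 in GF mice (largest adjusted p = 0.016) and from 1.45 to 1.93 in SPF mice (largest adjusted p = 0.0463). The lung minus spleen difference ranged from −2.29 to −1.78 (largest adjusted p = 0.00102) in GF mice and from −1.85 to −1.35 (largest adjusted p = 0.0116) in SPF mice.

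**Figure D1:**
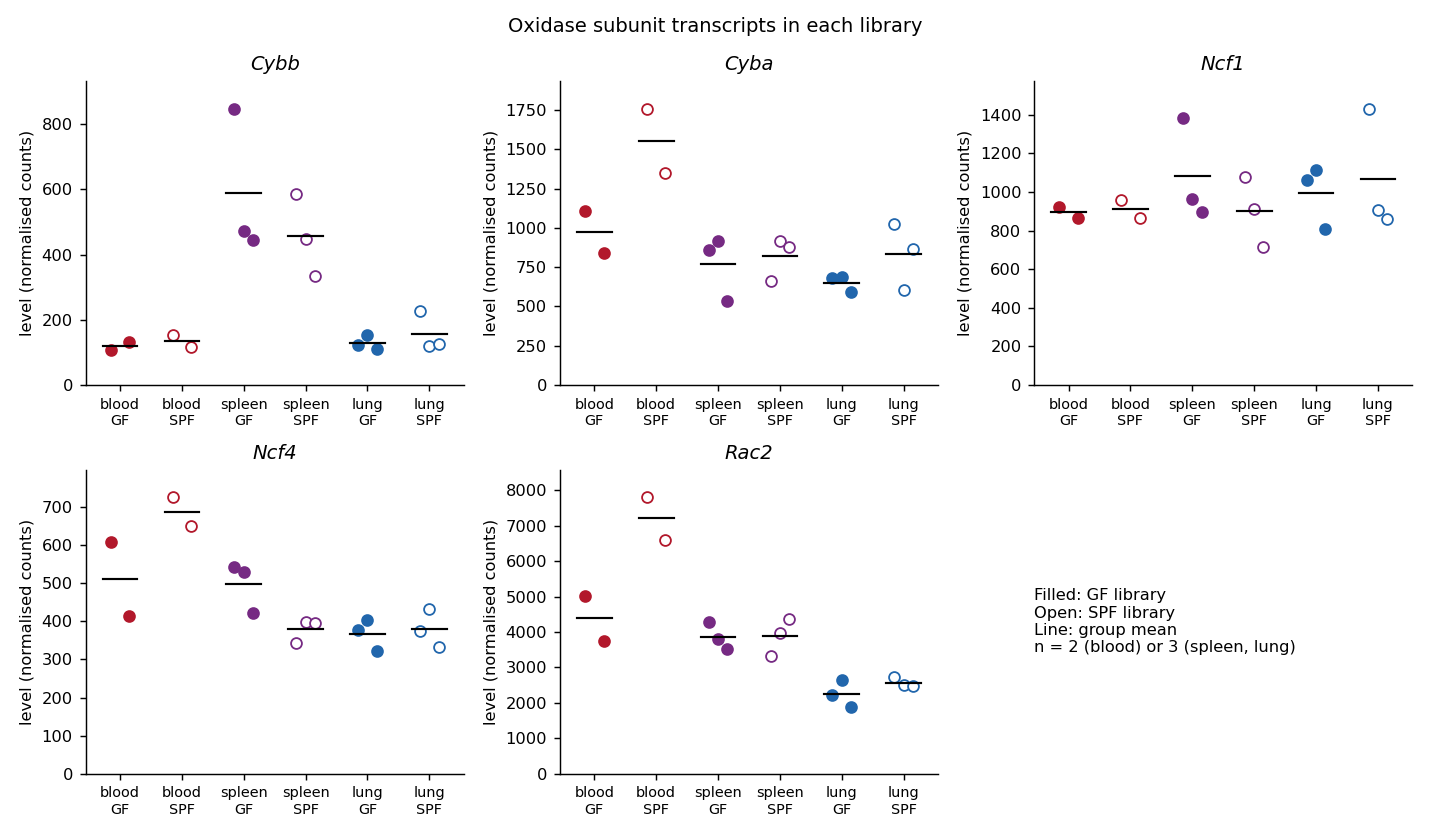
Level of each subunit transcript (y axis, normalised counts from 0, scaled per panel) in each library by tissue and microbial status, with a line at the group mean of 2 (blood) or 3 (spleen, lung) libraries. Cybb stands apart in spleen, Rac2 is lowest in lung, Cyba and Rac2 are highest in SPF blood, and Ncf1 shows no separation of groups.

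Markers of late neutrophil precursors, among them the granule protein genes Ltf, Ngp, Camp, Lcn2 and Mmp8, were in sum also highest in spleen. The summed level of 8 such markers (these 5, Chil3, Cd177 and the transcription factor gene Cebpe, 8 of 8 in the table) was 10991 to 44321 in spleen, 4480 to 6006 in blood and 2258 to 3920 in lung. GF spleen replicate 1 was highest in this sum and in Cybb. Within GF spleen the replicates stood in the same order in the sum (44321, 21854 and 17777) and in Cybb (847, 471 and 443). SPF spleen replicate 1 was lowest of the spleen libraries in this sum (10991) and next to GF spleen replicate 1 in Cybb (587). It was also the library with the fewest reads of all (104213). The order over the spleen libraries of both statuses was thus not shared. Of the 8 markers, 3 passed as higher in spleen than in blood in GF mice, where 0.47% of all genes tested did, and 5 in SPF mice, where 3.05% did. Between lung and spleen 7 passed as lower in lung in GF mice, against 2.14% of all genes, and 6 in SPF mice, against 1.99%. None of the 8 passed in the opposite direction in these 4 comparisons. Cebpe passed in none of the 6 tissue comparisons. Between spleen and blood Lcn2 did not pass (log2 difference 0.89 in GF and −0.42 in SPF mice), nor did Mmp8 (0.09 and −0.06). The 3 that passed there in GF mice were Ngp, Chil3 and Cd177. The median log2 difference of the 8 markers between spleen and blood was 3.00 in GF and 3.27 in SPF mice, against 0.04 and 0.09 over all genes tested. With 0 of its 5 genes matched, the list of earlier precursor markers was not analysed here. The part of maturing neutrophils in the Cybb difference was not tested.

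**Figure D2:**
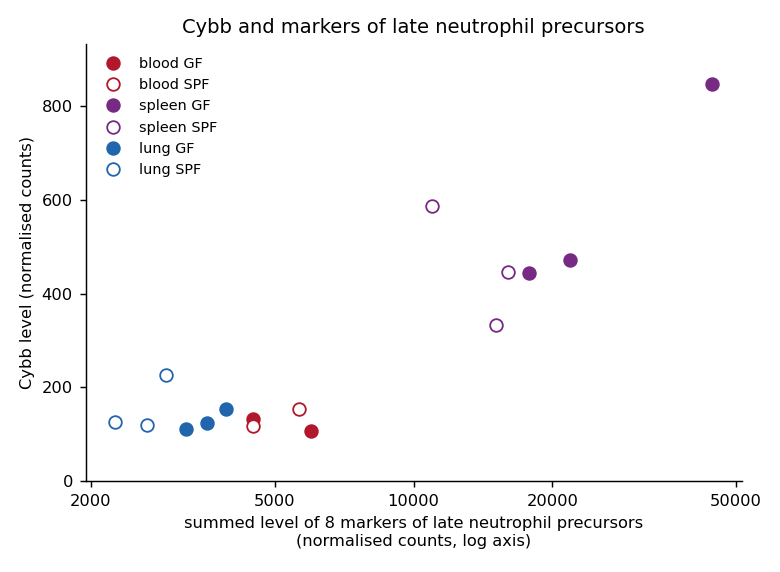
Cybb level (y axis, normalised counts from 0) against the summed level of 8 markers of late neutrophil precursors (x axis, normalised counts, log axis), 1 point per library, filled for GF and open for SPF. The 6 spleen libraries are highest on both axes, and blood and lung libraries lie below 230 in Cybb.

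Macrophages also express Cybb, so their markers are given beside it. Of 14 macrophage markers 10 were in the table, and their summed level was 2530 to 4101 in spleen, 2172 to 4151 in blood and 2109 to 2517 in lung. Most of that sum came from Slc40a1 and Csf1r, which were high in every group. The complement genes C1qa, C1qb and C1qc, defining markers of tissue macrophages, reached at most 30.03 in spleen, 19.3 in lung and 0.468 in blood. Vcam1 measured 7.62 to 66.1 in spleen and 14.5 to 29.0 in lung, against at most 2.74 in blood. Mertk was at 0 in every blood library, at most 5.07 in spleen, 10.6 to 14.5 in GF lung and 3.94 to 6.99 in SPF lung. Spic reached at most 7.41 in spleen, 1.97 in lung and 0.452 in blood. Of the 8 macrophage markers tested, 1 passed as higher in spleen than in blood in GF mice, where 0.47% of all genes tested did, and 5 in SPF mice, where 3.05% did. The 1 in GF mice was Vcam1 (log2 difference 4.49). Among the 5 in SPF mice were Vcam1 (3.30), C1qc (3.78), Csf1r (0.95) and C1qb (3.96). Between lung and blood, where Cybb did not pass, 2 markers were higher in lung (7.83% of all genes) and 1 lower (1.96%) in GF mice, and 4 were higher (12.5%) in SPF mice. Between lung and spleen none was higher in lung, and 1 was lower in SPF mice (1.99% of all genes). Their part in the Cybb difference was not tested.

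Cyba, the small membrane subunit that stabilises Cybb, measured 1108 and 837 in GF blood and 1758 and 1350.2 in SPF blood. In spleen it measured 858, 913 and 533 in GF and 663, 914 and 878 in SPF, and in lung 679, 686 and 592 in GF and 1026, 606 and 863 in SPF. The SPF blood libraries were the highest 2 of all 16, and the other groups overlapped with their neighbours. Group means ± SD were 652.3 ± 52.7 in GF lung (n = 3), 768.0 ± 205.6 in GF spleen (n = 3), 818.6 ± 135.9 in SPF spleen (n = 3), 831.7 ± 211.6 in SPF lung (n = 3), 972.6 ± 191.7 in GF blood (n = 2) and 1554 ± 288.6 in SPF blood (n = 2). In SPF mice Cyba was 1.89-fold lower in lung than in blood (log2 difference −0.92, SE 0.24, adjusted p = 0.00736) and 1.89-fold lower in spleen than in blood (−0.92, SE 0.24, adjusted p = 0.0201). In GF mice the differences were −0.57 for lung minus blood (interval −1.07 to −0.07, adjusted p = 0.162) and −0.36 for spleen minus blood (interval −0.87 to 0.14, adjusted p = 0.58). The SPF calls of Cyba rested on single libraries: without SPF blood replicate 3 both became −0.73 (adjusted p = 0.169 against lung and 0.35 against spleen). The lung call was also lost without SPF lung replicate 2 (−0.71, adjusted p = 0.0613), and the spleen call without SPF spleen replicate 1 (−0.78, adjusted p = 0.0657).

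Between lung and spleen Cyba did not pass in either status. Its log2 difference was −0.20 in GF mice (interval −0.65 to 0.25) and 0.00 in SPF mice (interval −0.45 to 0.45). Over its whole length Cyba overlaps Gm20388, a model on the opposite strand, and Ncf1 overlaps Gtf2ird2 over 4303 bases. Strand-aware counting is not stated in the sources used here, so reads of such partners cannot be told apart. The level counted for Gm20388 was at most 15.8 and that for Gtf2ird2 at most 15.2 in any library.

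Ncf1 (ENSMUSG00000015950, chromosome 5, 134220053 to 134229625, minus strand), the organiser that carries the cytosolic complex to the flavocytochrome once it is phosphorylated, was the subunit with no called difference. It measured 921 and 867 in GF blood and 960.2 and 866 in SPF blood. In spleen it measured 1385, 965 and 895 in GF and 1075, 913 and 715 in SPF, and in lung 1064, 1112 and 807 in GF and 1431, 905 and 860.0 in SPF. The libraries of all groups overlapped, and group means lay between 893.7 ± 38.2 (GF blood, n = 2) and 1082 ± 265 (GF spleen, n = 3). No comparison of the 13 made called Ncf1 in limma at the adjusted threshold, and none had an unadjusted p under 0.05. In the 6 tissue comparisons its 95% intervals lay between −0.54 and 0.73 on the log2 scale, so a fold difference as large as that of Cybb in spleen lay outside them.

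Ncf4 (ENSMUSG00000071715, chromosome 15, 78244801 to 78262580, plus strand) encodes the cytosolic subunit that binds a lipid of the phagosome membrane and sustains oxidase activity there. It measured 608 and 415 in GF blood, 725 and 649 in SPF blood, 543, 531 and 421 in GF spleen, 343, 399 and 395 in SPF spleen, 378, 404 and 322 in GF lung, and 374, 432 and 332 in SPF lung. SPF blood was above every other library, and SPF spleen lay with the lung groups. In SPF mice Ncf4 was 1.81-fold lower in lung than in blood (log2 difference −0.86, SE 0.23, adjusted p = 0.00678) and 1.80-fold lower in spleen than in blood (−0.85, SE 0.23, adjusted p = 0.0203). In GF mice it did not pass: lung minus blood was −0.46 (interval −0.92 to 0.00, adjusted p = 0.234) and spleen minus blood −0.02 (interval −0.48 to 0.44). Without SPF blood replicate 3 the lung call of Ncf4 was lost (−0.78, adjusted p = 0.107), and the spleen call was lost without that library (−0.77, adjusted p = 0.296) or without SPF blood replicate 4 (−0.93, adjusted p = 0.0793).

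Rac2 (ENSMUSG00000033220, chromosome 15, 78559167 to 78572783, minus strand), the GTPase of blood cells that switches the assembled enzyme on and also steers the actin cytoskeleton, was lowest in lung. It measured 5031 and 3756 in GF blood and 7802 and 6612 in SPF blood. In spleen it measured 4278, 3809 and 3508 in GF and 3334, 3960.0 and 4373 in SPF, and in lung 2212, 2658 and 1877 in GF and 2739, 2491 and 2479 in SPF. Each of the 6 lung libraries was below each of the 10 others, and the 2 SPF blood libraries were above all others. Spleen overlapped with GF blood. Group means ± SD rose from 2249 ± 392 in GF lung (n = 3) and 2570 ± 147 in SPF lung (n = 3), through 3865 ± 388 in GF spleen (n = 3), 3889 ± 523 in SPF spleen (n = 3) and 4393 ± 901 in GF blood (n = 2), to 7207 ± 841 in SPF blood (n = 2).

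Rac2 was 1.95-fold lower in lung than in blood in GF mice (log2 difference −0.96, SE 0.18, adjusted p = 0.000365) and 2.80-fold lower in SPF mice (−1.48, SE 0.18, adjusted p = 4.68e-07). These 2 calls of Rac2 were made in each of the 28 alternatives (largest adjusted p = 0.0494 and 0.00288). Against spleen, lung was 1.73-fold lower in GF mice (−0.79, adjusted p = 0.000994) and 1.51-fold lower in SPF mice (−0.59, adjusted p = 0.0166). The SPF difference of Rac2 between lung and spleen lost its call when any of 4 libraries was left out: SPF spleen replicate 2 (−0.57, adjusted p = 0.067), SPF spleen replicate 4 (−0.50, adjusted p = 0.0909), SPF lung replicate 2 (−0.57, adjusted p = 0.0609) or SPF lung replicate 3 (−0.56, adjusted p = 0.074). Spleen was 1.86-fold lower than blood in SPF mice (−0.89, adjusted p = 0.00286), a call lost without SPF blood replicate 3 (−0.77, adjusted p = 0.15), and the difference fell to −0.10 under quantile rescaling (adjusted p = 0.755). In GF mice spleen minus blood was −0.17 (interval −0.55 to 0.20). The lung libraries that were low in Rac2 were also those with structural cell transcripts, whose part was not tested. Of 11 entries tested for the 10 neutrophil markers, 5 passed as lower in lung than in blood in SPF mice (6.63% of all genes) and 3 as higher (12.5%). In GF mice 2 passed as lower (1.96%) and 0 as higher (7.83%). The marker list's median was −1.09 in SPF and −0.61 in GF mice, against 0.155 and 0.152 over all genes.

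Counted by comparison, in GF mice 1 of 5 subunits (Rac2) passed between lung and blood, where 9.8% of all genes tested passed, 2 of 5 (Cybb and Rac2) between lung and spleen, where 10.2% passed, and 1 of 5 (Cybb) between spleen and blood, where 0.88% passed. In SPF mice 3 of 5 (Cyba, Ncf4 and Rac2) passed between lung and blood, where 19.1% of all genes did, 2 of 5 (Cybb and Rac2) between lung and spleen, where 9.66% did, and 4 of 5 (all but Ncf1) between spleen and blood, where 7.06% did. Apart from Cybb in spleen, each called difference was a lower level in the tissue than in blood, or in lung than in spleen.

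**Figure D3:**
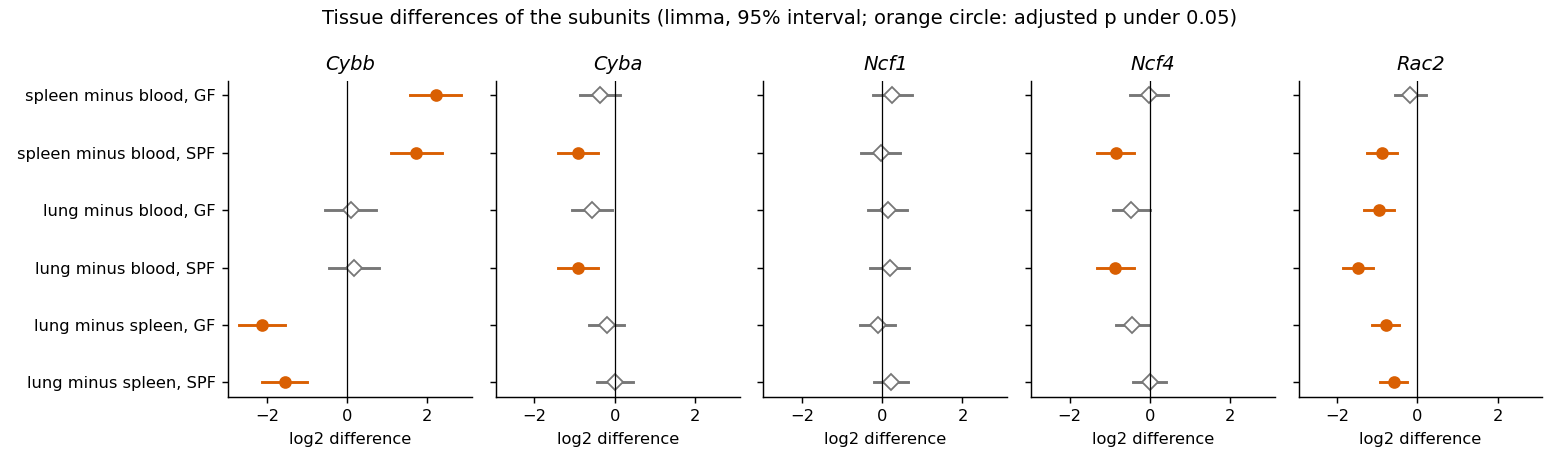
Log2 difference of each subunit (x axis) with its 95% interval in the 6 tissue comparisons (y axis), from limma on log2(value + 1); filled orange circles passed the adjusted threshold of 0.05 and open diamonds did not. Cybb lies to the right for spleen minus blood and to the left for lung minus spleen, and the called values of Cyba, Ncf4 and Rac2 lie to the left.

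Between GF and SPF mice no subunit passed in any tissue. In blood, 0 of 5 subunits passed in limma (2 of 5 at an unadjusted p under 0.05), where 1.33% of all genes passed. In blood, the largest difference was that of Rac2, 1.65-fold lower in GF mice (log2 difference −0.72, interval −1.13 to −0.31, unadjusted p = 0.00113, adjusted p = 0.0617), followed by Cyba (−0.67, interval −1.22 to −0.13, adjusted p = 0.2). For Rac2, Cyba and Ncf4 both GF blood libraries were below both SPF blood libraries, whereas for Cybb and Ncf1 they overlapped. Rac2 passed the threshold in blood without GF blood replicate 2 (−0.93, adjusted p = 0.0264), and also without GF spleen replicate 1 (−0.72, adjusted p = 0.0464) or SPF spleen replicate 1 (−0.72, adjusted p = 0.0234), which are not part of the comparison but share its estimate of spread. GF blood replicate 3 held 132798 reads and the other 3 blood libraries 2555255 to 3033941, so the GF side of blood rests on libraries of unlike depth.

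In spleen, 0 of 5 subunits passed between GF and SPF mice (0 of 5 at an unadjusted p under 0.05), where 0.325% of all genes passed, and in lung 0 of 5 passed (again 0 of 5 unadjusted), where 0.0241% passed. Cybb differed by 0.34 in spleen (interval −0.23 to 0.90) and by −0.23 in lung (interval −0.79 to 0.33). Ncf4 was higher in each GF spleen library than in each SPF spleen library, with a log2 difference of 0.38 (interval −0.03 to 0.80, adjusted p = 0.447). Averaged over the 3 tissues, 0 of 5 passed (2 of 5 unadjusted), where 1.39% of all genes passed: Rac2 was at −0.31 (interval −0.52 to −0.10, adjusted p = 0.129) and Cyba at −0.37 (interval −0.65 to −0.09, adjusted p = 0.184). Without SPF spleen replicate 1, Rac2 passed in this average (−0.35, adjusted p = 0.036).

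Whether a tissue difference itself depended on microbial status was tested as an interaction. For lung against blood 0 of 5 subunits passed (0 of 5 unadjusted), where 0.012% of all genes passed, and for lung against spleen 0 of 5 passed (0 of 5 unadjusted), where 0.012% passed. For spleen against blood 0 of 5 passed (2 of 5 unadjusted), where 0.759% of all genes passed. The 2 were Ncf4, whose spleen minus blood difference was higher by 0.83 in GF than in SPF mice (interval 0.17 to 1.48, adjusted p = 0.226), and Rac2, higher by 0.72 (interval 0.19 to 1.25, adjusted p = 0.189). For Cybb the spleen minus blood difference was higher by 0.48 in GF mice, with an interval of −0.41 to 1.38. So the calls of Cyba, Ncf4 and Rac2 between spleen and blood that passed in SPF mice alone were not shown to differ from the GF values.

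Ratios of subunits within a library do not depend on how libraries were scaled to each other. The 10 ratios of the 5 genes were compared in 4 ways, lung against spleen, lung against blood and spleen against blood within microbial status, and GF against SPF within tissue. Each used a two-sided exact permutation test, and p was adjusted over the 40 ratio tests. The ratios share genes and are not independent, and since the Cybb levels were known, those with Cybb restate its levels in another form.

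Per library, the log2 ratio of Cybb to Ncf1 ran from −1.09 to −0.71 in spleen, from −3.10 to −2.65 in blood and from −3.10 to −2.65 in lung. Blood and lung thus covered the same span, and spleen lay apart from both. Spleen minus blood was 1.87 (3.65-fold, exact permutation p = 0.01, adjusted p = 0.0222) and lung minus spleen −1.90 (exact permutation p = 0.005, adjusted p = 0.0222), each the smallest p its design can give, while lung minus blood was −0.03 (exact permutation p = 0.79).

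The ratio of the flavocytochrome partners, Cybb to Cyba, differed between all 3 tissues. On the log2 scale it was −3.52 to −2.62 in blood, −2.77 to −2.15 in lung and −1.39 to −0.02 in spleen. Spleen minus blood was 2.62 (6.14-fold, exact permutation p = 0.01, adjusted p = 0.0222), lung minus spleen −1.74 (exact permutation p = 0.005, adjusted p = 0.0222) and lung minus blood 0.88 (1.84-fold, exact permutation p = 0.01, adjusted p = 0.0222). In GF and in SPF mice the libraries of the tissues compared did not overlap. Beside the lung minus blood value stand the differences given above, −0.57 and −0.92 for Cyba in GF and SPF mice and 0.09 and 0.17 for Cybb.

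**Figure D4:**
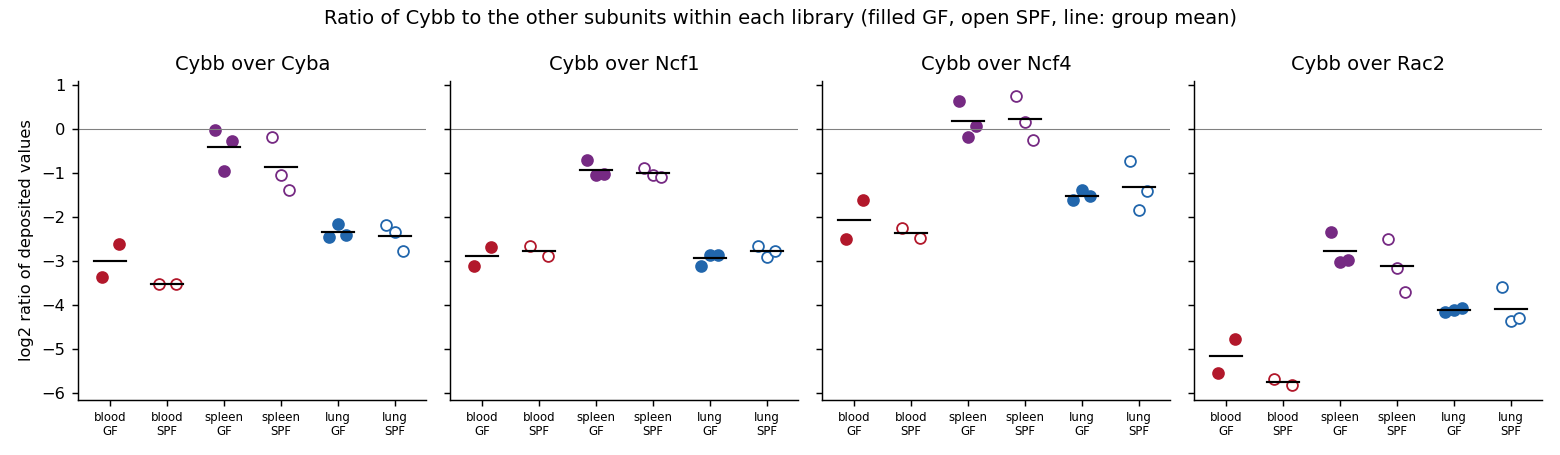
Log2 ratio of the deposited value of Cybb to that of Cyba, Ncf1, Ncf4 or Rac2 (y axis) in each library by tissue and microbial status, filled for GF and open for SPF, with a line at the group mean of 2 or 3 libraries. Spleen has the highest group means in every panel, and blood and lung cover the same range for Cybb to Ncf1.

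Among the other subunits, the proportion of Cyba to Ncf4 was not called in any tissue comparison (log2 differences of 0.12 for lung minus spleen, −0.09 for lung minus blood and −0.21 for spleen minus blood, with exact permutation p = 0.505, 0.8 and 0.12). Lung stood out in the proportion of Rac2: relative to Rac2, Ncf1 was higher in lung than in spleen by 0.75, Cyba by 0.59 and Ncf4 by 0.47 (exact permutation p = 0.005 and adjusted p = 0.0222 for each). Against blood the same ratios were higher in lung by 1.39 for Ncf1 (exact permutation p = 0.01), 0.48 for Cyba (exact permutation p = 0.02) and 0.57 for Ncf4 (exact permutation p = 0.01). Relative to Ncf1, Cyba was lower than in blood by −0.91 in lung and by −0.75 in spleen (exact permutation p = 0.01 and 0.02, adjusted p = 0.0222 and 0.0364).

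In all, 7 of 10 ratios passed for lung against spleen, 8 of 10 for lung against blood and 5 of 10 for spleen against blood. Without GF blood replicate 2, SPF blood replicate 3 or SPF blood replicate 4, 0 of the ratios passed in either comparison with blood, where the smallest p that can be reached is then 0.025, and the called ratios (8 and 5) kept their direction. Between GF and SPF mice 3 of 10 ratios passed: Cyba to Ncf1 (−0.42, exact permutation p = 0.0217, adjusted p = 0.0377), Cyba to Ncf4 (−0.34, exact permutation p = 0.0158, adjusted p = 0.0333) and Ncf4 to Rac2 (0.28, exact permutation p = 0.00333, adjusted p = 0.0222). Cyba was thus lower relative to these 2 cytosolic subunits in GF mice, and Ncf4 higher relative to Rac2. These 3 ratios kept their direction without any of the 16 libraries, but only 1 ratio passed when any of 8 was left out: GF blood replicate 2, SPF blood replicate 3 or 4, GF spleen replicate 4, SPF spleen replicate 2, GF lung replicate 2 or 3, or SPF lung replicate 3.

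Levels of different genes can be compared per length of transcript. Per kb of the principal transcript (4752 bases for Cybb, 744 for Cyba, 2721 for Ncf1, 1464 for Ncf4 and 3038 for Rac2, GENCODE M21), Cybb had the lowest group mean level of these genes in every group: 25.3 to 33.2 normalised counts per kb in blood and lung, and 95.9 to 124 in spleen. Cyba (877 to 2089 per kb) and Rac2 (740.3 to 2372 per kb) had the highest group means. The cytosolic subunits lay between, at 328 to 398 per kb for Ncf1 and 251 to 469 for Ncf4. Although their proteins pair, Cyba exceeded Cybb per kb by 40.1 to 73.6 times in the blood libraries, by 28.5 to 43.8 times in the lung libraries and by 6.47 to 16.8 times in the spleen libraries. Which isoforms were counted is not stated in the sources used here, and the lengths set the scale of these ratios between genes. Division by length also takes reads to cover each transcript evenly, which was not tested for this amplified RNA.

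**Figure D5:**
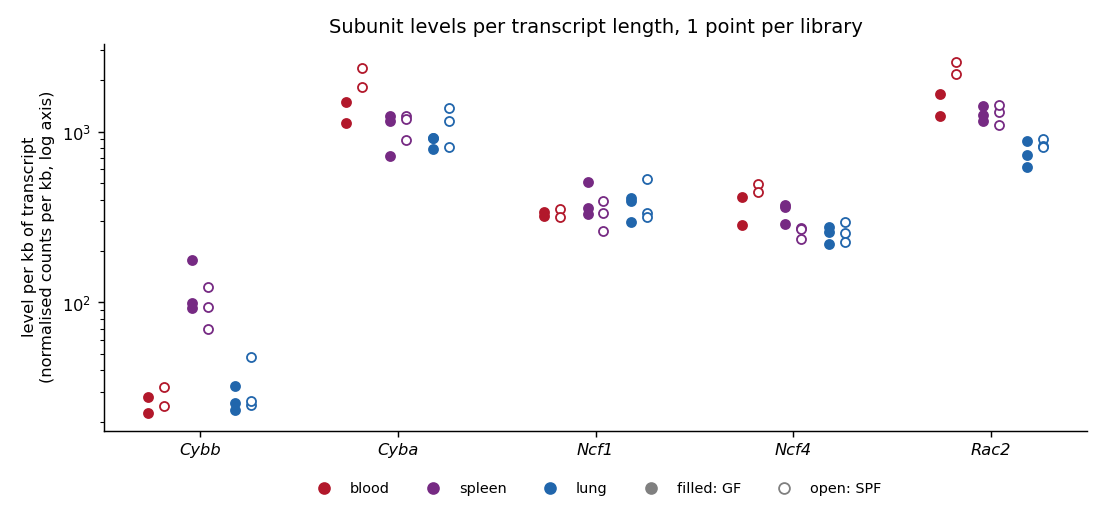
Level per kb of principal transcript (y axis, normalised counts per kb, log axis) of the 5 subunits, 1 point per library, coloured by tissue, filled for GF and open for SPF. Cybb lies lowest in all tissues and nearest to the others in spleen.

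Likeness to other genes was measured as the root mean square difference of centred log2 values over the 16 libraries, among 1395 genes with a mean value of at least 100. Nearest to Cybb were Cd177 (0.46), a surface glycoprotein of neutrophils, Rps6ka1 (0.64), a ribosomal S6 kinase, and Rab3d (0.69), a GTPase of secretory vesicles, where Cybb itself varied by 0.98. The other 4 subunits ranked from 146 (Ncf1) to 874 (Cyba) in likeness to Cybb. Nearest to Cyba were Card19 (0.15), Fpr2 (0.15), a receptor for formyl peptides, and Fxyd5 (0.16). Nearest to Ncf1 were Nono (0.18), Spop (0.24) and Alox5 (0.24), the enzyme that starts leukotriene synthesis. Ncf1 itself varied by only 0.254, so Spop (0.241) and Alox5 (0.245) were hardly nearer to it than a gene with flat values. The remaining subunits themselves varied by 0.44 (Cyba), 0.34 (Ncf4) and 0.54 (Rac2). Nearest to Ncf4 were Shisa5 (0.14), Arpc1b (0.15), a subunit of the actin-nucleating Arp2/3 complex, and Laptm5 (0.15), and nearest to Rac2 were Cnn2 (0.13), a calponin, Pglyrp1 (0.17), a peptidoglycan recognition protein, and Cd68 (0.18). No subunit was among the 3 nearest genes of another: the closest was Ncf4 to Rac2, at rank 91.

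For each list below, the share of all genes tested that passed in the same direction is given beside the count. Among 7 assembly partners of the subunits tested, 3 passed as lower in lung than in blood in SPF mice (6.63% of all genes), led by the Rac inhibitor Arhgdib (−1.45, adjusted p = 4.35e-05), and 0 as higher (12.5%). There the list's median was −0.64, against 0.16 over all genes. In GF mice 1 passed as lower (Arhgdib, −0.74, with 1.96% of all genes) and 1 as higher (Arhgdia, 0.87, with 7.83%). Between lung and spleen Arhgdib alone was lower in GF mice (−0.92, with 2.14% of all genes), and Arhgdia alone was higher in SPF mice (0.81, with 7.68%). Between spleen and blood in SPF mice 2 passed as lower, Rhog (−1.31) and Arhgdib (−0.97), where 4.01% of all genes did.

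Of 9 genes tested that supply NADPH or balance charge, 3 passed as lower in lung than in spleen in GF mice (2.14% of all genes), with a list median of −0.48 against 0.11 over all genes. They were the proton channel Hvcn1 (−2.14, adjusted p = 0.00315), which lets protons follow the electrons that Cybb carries, and the pentose phosphate enzymes G6pdx (−0.80, adjusted p = 0.00392) and Pgd (−0.76, adjusted p = 0.0138). Between spleen and blood in SPF mice Hvcn1 alone was higher (2.26, adjusted p = 0.0114, with 3.05% of all genes) and the transaldolase Taldo1 alone lower (−1.01, with 4.01%). Taldo1 was also the 1 gene of the list that was lower in lung than in blood, by −0.91 in GF mice (1.96% of all genes) and by −1.18 in SPF mice (6.63%).

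Of 14 genes tested that handle the oxidase's products, 7 passed as lower (4.01% of all genes) and 0 as higher (3.05%) in spleen than in blood in SPF mice. The list's median there was −0.996, against 0.09 over all genes, and Gpx1 (−1.39), Txn1 (−1.38), Glrx (−1.03) and Sod2 (−1.59) were among the 7. In SPF mice 5 passed as higher (7.68% of all genes) and 0 as lower (1.99%) in lung than in spleen, with a list median of 0.37 against 0.06 over all genes. Among these were Sod2 (2.18), Prdx6 (1.56), Prdx1 (1.96) and Txnrd1 (2.12). Between lung and blood 1 was higher (7.83% of all genes) and 2 lower (1.96%) in lung in GF mice, and 2 were higher (12.5%) and 5 lower (6.63%) in SPF mice. Between lung and spleen in GF mice 3 were higher (8.03% of all genes) and 1 lower (2.14%) in lung, and none passed between spleen and blood in GF mice, where 0.88% of all genes passed in either direction.

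Of 7 transcription factors tested that are known to act on subunit genes, Spi1, which encodes PU.1, was lower in SPF mice in lung than in blood (−1.04, adjusted p = 0.000147) and in spleen than in blood (−1.12, adjusted p = 0.000505). In that spleen comparison Cybb was called higher, and Cyba, Ncf4 and Rac2 were called lower. The part of Spi1 in these differences was not tested. Spi1 was the 1 of 7 that passed between spleen and blood in SPF mice, where 4.01% of all genes passed as lower and 3.05% as higher. With Irf1 (−0.79) and Irf8 (2.46), 3 of 7 passed between lung and blood in SPF mice. Of these, 2 were lower in lung (6.63% of all genes) and 1 was higher (12.5%). In GF mice 0 of the 7 passed in either direction between lung and blood (9.8% of all genes), between lung and spleen (10.2%) or between spleen and blood (0.88%).

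Of 21 kinases and lipid enzymes tested that prime or activate the oxidase, 3 were higher in spleen than in blood in SPF mice (Pik3cd 1.26, Pik3r5 1.41 and Pld1 3.10), where 3.05% of all genes were higher and the list's median was 0.29 against 0.09 over all genes. Between lung and blood in SPF mice 3 were higher in lung (Pik3cd, Pik3r5 and Syk, the last by 0.85), where 12.5% of all genes were higher and the list's median was −0.20. In lung 1 was lower than in blood in GF mice (Irak4, −1.39, with 1.96% of all genes) and 1 lower than in spleen in SPF mice (Prkcb, −1.225, with 1.99%). Between GF and SPF blood, where no subunit passed, Pik3cd (1.21, adjusted p = 0.0311) and Pld1 (2.89, adjusted p = 0.0412) were higher in GF mice, as were 0.795% of all genes. Over the 3 tissues Prkcb was lower in GF mice (−1.06, adjusted p = 0.0199), as were 0.446% of all genes. For Pld1 the spleen minus blood difference was lower in GF than in SPF mice by −3.80 (interaction, adjusted p = 0.0494), where 0.349% of all genes passed as lower. Of 10 exchange factors and GAPs for Rac, 2 were higher in spleen than in blood in SPF mice (Abr 1.05 and Dock2 0.96, with 3.05% of all genes) and 1 was higher in lung than in blood (Abr 1.17, with 12.5%).

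Of 9 other genes of this enzyme family listed, 1 was in the table, the catalytic subunit Nox4. It passed as higher in lung than in blood, with log2 differences of 2.60 in GF mice (7.83% of all genes) and 2.99 in SPF mice (12.5%). Against spleen it passed as higher in lung by 2.08 in GF mice (8.03%) and by 2.155 in SPF mice (7.68%). The lung libraries were those that held lung structural transcripts, whose part was not tested.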

How the data were processed

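RNA of Ly6G+ neutrophils sorted from GF and SPF mice (blood, spleen and lung) was sequenced as 16 libraries. Per the submitters' processing notes, CASAVA, RSEM 1.3.1, limma and the assembly mm10 were used; roles, annotation and scaling are not given in the sources used here. The deposited table holds linear signal values, made by the authors, with the form of an RSEM count plus 0.5 reads, scaled per library (1 read is worth 0.392 to 7.62 units). From 88.1% to 97.7% of values under 10 reads lay within 0.05 of a whole read, too few to treat them as counts. Recovered depth was 104213 to 3033941 reads per library (median 645992.5); low depth makes values coarse.

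Differences were fitted in limma 3.58.1 (R 4.3.3) on log2(value + 1) for 8299 of 10296 genes (value 10 in 2 or more libraries), with 6 group means, a trended robust prior and Benjamini-Hochberg adjustment in each of 13 comparisons. The pseudocount of 1 understates changes of low genes. Ratios within a library used exact permutation tests, two-sided and stratified by the other factor. Lengths and positions came from GENCODE M21 (10275 identifiers matched), promoter windows from RefSeq (3 of 5 subunits matched). Both tests were checked on simulated data. The alternatives were other pseudocounts, filters, scalings, priors and weights, fewer groups or libraries, and a replicate block.

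The subunits are named in every comparison; of other lists, at most the 4 called members of smallest adjusted p per comparison. The subunits and lists were chosen with earlier results of these data known. A further gene of the pathway lists was left out of its list and is not reported here.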

Additional observations from a re-analysis of the deposited data

Results flagged for a closer look

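Ncf4, the cytosolic subunit that binds a phagosome lipid, had differences of opposite sign between GF and SPF mice in blood and in spleen, neither of which passed in limma (adjusted p = 0.378 and 0.447). In blood both GF libraries (608 and 415) were below both SPF libraries (725 and 649), a log2 difference of −0.44 for GF minus SPF. In spleen each GF library (543, 531 and 421) was above each SPF library (343, 399 and 395), a difference of 0.38. The difference between the tissues was 0.828, with an unadjusted p of 0.0147 and an adjusted p of 0.226 in limma's interaction test, so it did not pass. Over the 28 alternatives this value of Ncf4 ranged from 0.56 to 1.097, with adjusted p between 0.0854 and 0.702. GF blood replicate 3, the lower of the GF blood values, held 132798 reads.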

How the results depend on the processing

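The 4 calls of Cybb that involve spleen and the calls of Rac2 between lung and blood kept their direction and their call under every alternative run. Ncf1 had no call under any. The other calls of subunits depended on 1 or more settings. Without the 5 libraries under 250000 reads, 3 subunits passed for lung minus blood in GF mice (Cyba −0.77 and Ncf4 −0.73 joined Rac2), 1 for lung minus spleen in SPF mice and 2 for spleen minus blood in SPF mice, and 0 ratios passed in each of the 4 ratio comparisons, where lung against spleen can then reach no p below 0.0625 and spleen against blood none below 0.167. With a plain prior 1 subunit passed for lung minus blood in SPF mice, 1 for lung minus spleen in GF mice, 1 in SPF mice and 1 for spleen minus blood in SPF mice. For that last comparison 1 also passed under quantile rescaling (Cyba −0.495, Ncf4 −0.535 and Rac2 −0.102 were lost) and when only the groups compared were fitted. For GF minus SPF in blood 1 subunit (Rac2) passed with a filter of 100, with median-ratio rescaling and with array weights. The cause of these changes was not tested.

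Leaving out single libraries, the number of subunits called ranged from 1 to 3 for lung minus blood in SPF mice, from 1 to 2 for lung minus spleen in SPF mice, from 1 to 4 for spleen minus blood in SPF mice, from 0 to 1 for GF minus SPF in blood and from 0 to 1 for the mean of 3 tissues. The number of ratios called ranged from 0 to 8 for lung minus blood, from 0 to 5 for spleen minus blood and from 1 to 4 for GF minus SPF.

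Uncalled differences near 0 changed sign. For Cybb, lung minus blood became −0.072 (median-ratio) and −0.063 (TMM rescaling) in GF mice and −0.005 (TMM) in SPF mice, and GF minus SPF over the tissues 0.008 (array weights). For Ncf1, lung minus blood in GF mice became −0.023 (median-ratio) and −0.015 (TMM), spleen minus blood in SPF mice 0.263 (quantile) and 0.003 (without shallow libraries), lung minus spleen in GF mice 0.028 (without shallow libraries), and GF minus SPF in blood 0.027 (quantile) and 0.014 (without shallow libraries). For Cyba, lung minus spleen in SPF mice became −0.147 (quantile), −0.106 (median-ratio), −0.069 (TMM), −0.133 (array weights) and −0.17 (without shallow libraries). For Ncf4 and Rac2, spleen minus blood in GF mice became 0.042 and 0.15 (quantile), Ncf4 over the tissues 0.064 (without shallow libraries), and Rac2 in spleen 0 (TMM, GF minus SPF).

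Leaving out single libraries, Cybb ranged from −0.086 to 0.263 (lung minus blood, GF), −0.119 to 0.365 (SPF), −0.336 to 0.046 (GF minus SPF, blood), −0.393 to 0.062 (lung) and −0.111 to 0.085 (mean of tissues). Ncf1 ranged from −0.046 to 0.32 (lung minus blood, SPF), −0.233 to 0.081 (lung minus spleen, GF), −0.013 to 0.357 (SPF), −0.172 to 0.122 (spleen minus blood, SPF), −0.101 to 0.048 (GF minus SPF, blood), −0.209 to 0.158 (lung) and −0.012 to 0.129 (mean of tissues). Cyba ranged from −0.167 to 0.212 (lung minus spleen, SPF) and −0.26 to 0.125 (GF minus SPF, spleen). Ncf4 ranged from −0.107 to 0.083 (lung minus spleen, SPF), −0.289 to 0.248 (spleen minus blood, GF), −0.135 to 0.054 (GF minus SPF, lung) and −0.123 to 0.056 (mean of tissues), and Rac2 from −0.384 to 0.036 (spleen minus blood, GF) and −0.111 to 0.084 (GF minus SPF, spleen).

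The replicate numbers were not shown to pair libraries: over 9 pairs of the same status and number from different tissues, deviations correlated at −0.128 to 0.068, with 0 over 0.1. With the number as a replicate block, 1 subunit passed for lung minus spleen in SPF mice and 1 for spleen minus blood in SPF mice, and Cyba for lung minus blood in SPF mice had an adjusted p of 0.0602. Under the replicate block, uncalled values changed sign to −0.212 (Cybb) and −0.124 (Ncf1) for lung minus blood in SPF mice, 0.018 (Ncf1) and, in SPF mice, −0.07 (Cyba) and 0.008 (Ncf4) for lung minus spleen, 0.134 (Ncf4) for spleen minus blood in GF mice, 0.009 (Rac2) for GF minus SPF in spleen, 0.089 (Cybb), 0.168 (Ncf1) and 0.003 (Ncf4) in lung, and 0.048 (Cybb) over the tissues. Count tests (edgeR, DESeq2) were planned and not run, since the values could not be recovered as whole reads.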
